A study of Mus musculus with 240 samples.

Results

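The 96 small libraries of mutant oligodendrocyte precursor cells (OPCs) collected at 12 days post induction (dpi, counted from the start of tamoxifen) are described here, out of 240 libraries in the series. They were chosen by the labels alone: 56 libraries are 10-cell samples and 40 are pool-and-split controls. All 96 carry the genotype Trp53-/- Nf1-/-, and no wild-type library of this small size is among them, so nothing below separates the mutation from the cell type. Cells were cut from 8 µm brain sections by laser capture, and their cDNA was amplified by PCR and tagmented for sequencing. The labels split each kind into 4 sets by sex and a closing number (female 1, female 2, male 1 and male 2), with 14 10-cell libraries and 10 pool aliquots per set. They do not say whether that number is an animal, a pool or a batch, so p-values measure the spread between libraries of 4 sets and not between animals. They name neither the promoter driving the recombinase nor a marker used to pick the cells.

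OPCs are the dividing glial precursors of the adult brain, marked by the PDGF receptor alpha and the proteoglycan NG2, and they give rise to myelinating oligodendrocytes. Loss of Trp53, the gene of a DNA damage-activated transcription factor, and of Nf1, the gene of a RAS inhibitor, in this lineage is a known route to glioma in mice. In a 10-cell sample every group of cells is a separate draw from the tissue, whereas pool-and-split aliquots are taken from material pooled first. The labels do not say whether all aliquots of a set come from 1 pool, so the spread among aliquots need not be that of handling and amplification alone. The comparison asks which genes and functions spread more among 10-cell samples than among pool aliquots. The readout is the standard deviation (SD) of log2(CPM + 1) within a set, where CPM is counts per 1000000 gene counts, and the log2 SD ratio is that of 10-cell libraries over pool aliquots, pooled over the 4 sets.

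Gene counts summed to between 1.64 and 6.49 M per 10-cell library (M stands for 1000000, median 4.48 M) and to between 2.86 and 5.16 M per aliquot (median 4.36 M). A count above 0 was found for 3303 to 12600 genes per 10-cell library (median 7496) and for 5593 to 11197 per aliquot (median 8651.5). Added spike-in RNA took 0.223 to 24.5% of all counts in 10-cell libraries and 0.379 to 8.74% in aliquots. In 16 of the 56 10-cell libraries this share lay above that of every aliquot of their set, and in another 16 it lay below. The 16 high libraries (1 in female 1, 6 in female 2, 5 in male 1 and 4 in male 2) touch many results, and the main ones are given with and without them. Aliquots also fell apart in 1 set: in male 1 the spike-in share was 0.379, 0.411 and 0.510% in 3 aliquots and 5.77 to 8.38% in the other 7. Without these 3 aliquots the same number of genes was called as wider (2) and as narrower (0). Both settings were chosen after the data had been seen. Leaving out the 16 high libraries trims the 10-cell kind only, with all 40 aliquots and the 16 low 10-cell libraries kept. What part of a smaller ratio comes from this trimming was not tested.

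The labelled cell type was checked against marker genes. Of 12 OPC markers, 8 were detected in at least 50% of 10-cell libraries and 11 in at least 50% of aliquots. Detection in 10-cell libraries ran from 37.5% for C1ql1 to 100% for Cspg4, which encodes NG2. Markers of other cells were also present. All 8 neuronal, 7 astrocytic, 5 endothelial, 4 pericyte and 4 red cell markers were detected in at least 50% of 10-cell libraries, as were 4 of 10 oligodendrocyte and 4 of 8 microglial markers. Summed over their markers, neurons had a median of 2773 CPM, red cells 1968, astrocytes 1822, pericytes 1619 and OPCs 1200 CPM in 10-cell libraries. Oligodendrocytes had 600 CPM, endothelium 417 CPM and microglia 133 CPM. Nf1 had a count in 23 of 56 10-cell libraries and 17 of 40 aliquots (highest 1547 and 2632 CPM), too few for a test of its spread. Trp53 was at a median of 0.23 CPM in 10-cell libraries and 0.44 CPM in aliquots. Its means went the other way, 10.2 and 1.14 CPM, with highest values of 253 and 15.2 CPM. For Trp53, 9 10-cell libraries lay above and 0 below every aliquot of their set. Neither its spread (log2 SD ratio 1.03, limma adjusted p 0.636) nor its level (edgeR adjusted p 0.997) was called.

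At 12 dpi Ptgds varied more among 10-cell samples than among aliquots, and it was 1 of 2 genes that did so by the test fixed for all 7874 genes detected in at least 48 of the 96 libraries (0.0254% of genes, limma on absolute deviations from the set median, adjusted p under 0.05). No gene varied less (0%). At an unadjusted p under 0.05, 652 genes were wider (8.28%) and 97 narrower (1.23%). The number of calls depends on how the deviation is taken: measured from the set mean instead of the median, 294 genes were wider and 45 narrower. With the 4 sets rather than the libraries as the unit, 0 were wider, and without set female 2 also 0.

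Ptgds encodes the lipocalin-type prostaglandin D2 synthase, made in the brain by meninges, choroid plexus and mature oligodendrocytes (ENSMUSG00000015090, GRCm38 chromosome 2, 25466709 to 25470046). In female 1, Ptgds ran from 0 through a median of 22.7 to 457 CPM in 10-cell libraries and from 37.6 through 486 to 5197 CPM in aliquots. In female 2 it ran from 0 through 89.6 to 8091 CPM against 127 through 710.2 to 3717 CPM. In male 1 it ran from 0 through 532 to 9280.0 CPM against 731 through 1503 to 3820 CPM. In male 2 it ran from 0 through 19.4 to 545 CPM against 156 through 423 to 10928 CPM, where 2 aliquots (9270 and 10928 CPM) stood far above the other 8 (156 to 634 CPM). The 2 kinds overlapped in every set, but 10-cell libraries reached down to 0 in each, which no aliquot did. Ptgds was at 0 in 15 of 56 10-cell libraries and 0 of 40 aliquots, and 37 10-cell libraries lay below every aliquot of their set while 2 lay above. For scale, the median over the most abundant quintile of genes was 8 10-cell libraries below and 5 above. The SD was 4.11 against 1.76 on the log2 scale, a log2 SD ratio of 1.22 (SD over the 4 sets 0.83, larger in 4 of 4 sets, limma adjusted p 0.00104). The spread went with a mean of 686 CPM against 1720 CPM, though the level itself was not called (edgeR adjusted p 0.997).

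**Figure D1:**
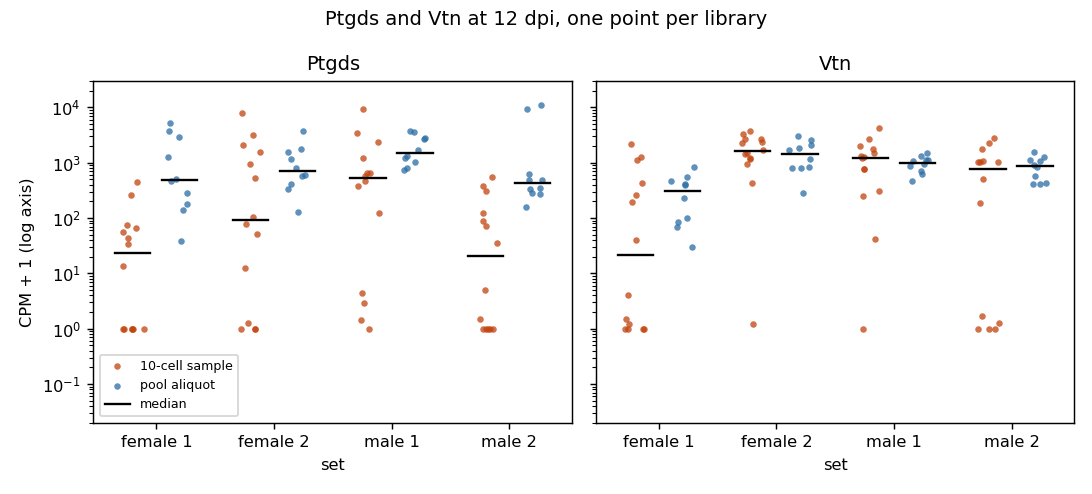
Level of Ptgds (left) and of the pericyte gene Vtn (right) as CPM + 1 on a log axis, 1 point per library, in the 4 sets; orange points are the 14 10-cell libraries and blue points the 10 pool aliquots of a set, and bars are medians. Of the 56 10-cell libraries 15 are at 0 for Ptgds and 8 for Vtn, and no aliquot is.

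The Ptgds call had limits. Without the 16 high spike-in libraries Ptgds was not called (log2 SD ratio 1.03, limma adjusted p 0.606). The call was also lost without set female 2 (adjusted p 0.0944), without set male 2 (0.0669), with the 4 sets as the unit (0.331) and with a pseudocount of 5 (0.0871), while the log2 SD ratio stayed between 0.88 and 1.60 over all alternatives. In samples of this kind fewer cells of a type and less RNA per cell cannot be told apart.

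Over all tested genes the excess spread was small and grew with the level of the gene. The median log2 SD ratio was 0.10, with 0.06 in female 1, 0.10 in female 2, 0.17 in male 1 and 0.18 in male 2. By quintile of mean level it was -0.02 in the lowest, then 0.02, 0.07 and 0.13, and 0.32 in the most abundant. The share wider at an unadjusted p under 0.05 went from 2.67% in the lowest to 20.9% in the most abundant quintile, and the share with a larger 10-cell SD in each of the 4 sets from 7.43 to 34.9% (16.4% of all genes, against 3.47% smaller in each set). Without the 16 high spike-in libraries the median in the most abundant quintile was 0.09, its share wider at an unadjusted p under 0.05 was 3.74%, and that of all 8560 genes then tested was 4%. The 22 of 92 spike-in RNAs detected in at least 48 libraries had a median log2 SD ratio of 0.05 and none was called. In the same limma test 0 were wider and 1 narrower at an unadjusted p under 0.05. They were scaled to each library's total of spike-in counts, not of gene counts, so differences in spike-in share do not enter this value. Their median SD was 3.43 in 10-cell libraries and 3.64 in aliquots, against 2.84 and 2.28 for the most abundant quintile of genes. Whether such noisy spike-ins track the noise of abundant genes was not tested.

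**Figure D2:**
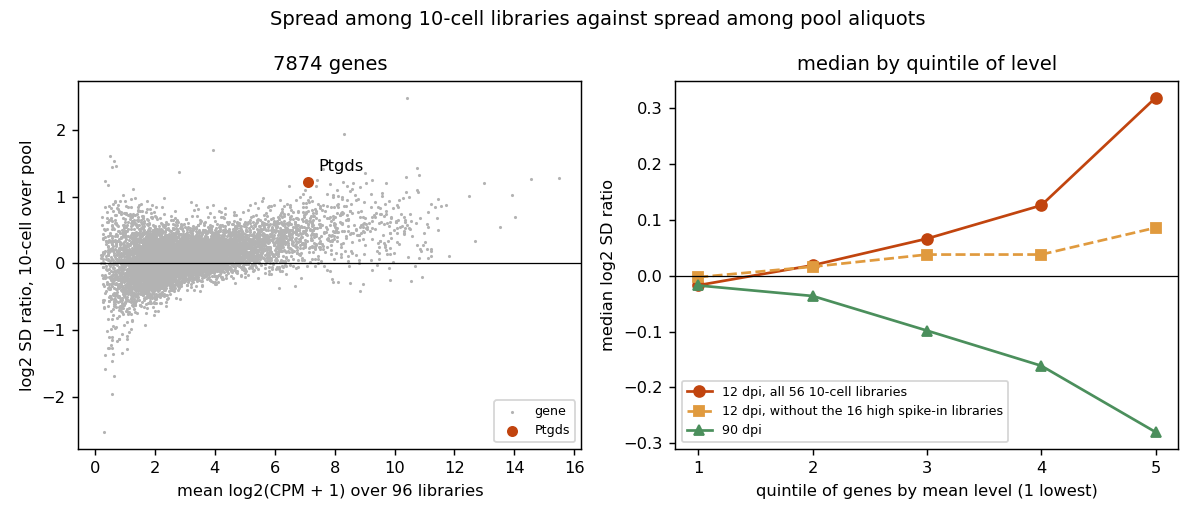
Left, log2 SD ratio of each of the 7874 genes against its mean log2(CPM + 1), with Ptgds marked. Right, median log2 SD ratio by quintile of level at 12 dpi with all 56 10-cell libraries, at 12 dpi without the 16 of high spike-in share, and at 90 dpi; in the most abundant quintile these are 0.32, 0.09 and -0.28.

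Myelin and mature oligodendrocyte genes had 7 of 10 tested members wider at an unadjusted p under 0.05 (beside 8.28% of all genes and 20.9% of the most abundant quintile, which held 8 of the 10), and 7 with a larger 10-cell SD in each set. Their median log2 SD ratio was 0.48, and 0.34 without the 16 libraries, with 4 of 12 then wider. In that fit 4% of all genes and 3.74% of the most abundant quintile were wider. It depended on which members were tested: with genes detected in 0.1 of libraries the median was -0.05, and in 0.9 of libraries 1.04. The latter is the value of the member Mbp, given next, and so is not a result separate from that gene. Mbp, which encodes myelin basic protein, had an SD of 2.94 against 1.42 (log2 SD ratio 1.04, adjusted p 0.372) at almost equal means of 497 and 496 CPM, and 0.83 without the 16. Its 10-cell libraries were both lower (12) and higher (5) than every aliquot of their set. The summed CPM of the 24 myelin genes ran from 3.66 to 14462 in 10-cell libraries and from 367 to 9431 in aliquots, with 21 10-cell libraries below and 4 above every aliquot of their set. The lowest 10-cell sum was 141 CPM without the 16 libraries, and the log2 SD ratio of the sum went from 1.25 to 0.58.

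Of the sums over the 33 gene lists, those of pericyte and endothelial genes had the largest log2 SD ratios (2.13 and 1.71), followed by microglia (1.34) and myelin (1.25). Without the 16 libraries pericytes (2.02) and endothelium (1.59) kept the largest, but microglia had 0.86 and myelin 0.58, below haemoglobin (0.95), mitochondrially encoded (0.88) and neuronal (0.87) sums. The 10 pericyte genes together ran from 0 to 8991 CPM in 10-cell libraries and from 117 to 4813 CPM in aliquots. The SD of their log2 sum was 3.68 against 0.84, or 3.42 without the 16 libraries, with 21 libraries below and 16 above every aliquot of their set. In female 1 the pericyte sum had a median of 61.3 CPM in 10-cell libraries and 437 CPM in aliquots, and in female 2 4593 and 3933 CPM. Of 9 pericyte genes tested singly, 3 (33.3%) were wider at an unadjusted p under 0.05, beside 8.28% of all genes. The most abundant quintile, of which 20.9% were wider, held 5 of the 9. Their median log2 SD ratio was only 0.38, and 0.36 with 2 of 9 wider (beside 4% of all genes) without the 16 libraries. The most variable member, Vtn, encodes vitronectin, an adhesive glycoprotein made by brain pericytes. Its SD was 3.99 against 1.04, a log2 SD ratio of 1.94 that was larger in 4 of 4 sets but missed the threshold (limma adjusted p 0.0786). Vtn was at 0 in 4 of the 14 10-cell libraries of female 1, 0 of female 2, 1 of male 1 and 3 of male 2, with highest values of 2197, 3691, 4271 and 2801 CPM. Aliquots of Vtn ran from 28.9 to 842 CPM in female 1 and from 282 to 2991 CPM in female 2, and none was at 0. For Pdgfrb, the PDGF receptor beta of pericytes, the log2 SD ratio was 0.74 (adjusted p 0.337), and 0.56 without the 16.

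The 14 endothelial genes summed to 0.61 to 10205 CPM in 10-cell libraries against 27.7 to 4003 CPM in aliquots, an SD of 3.31 against 1.01 (3.03 without the 16 libraries). As single genes 5 of 13 tested (38.5%) were wider at an unadjusted p under 0.05, beside 8.28% of all genes and 20.9% of the most abundant quintile, which held 4 of the 13. Their median log2 SD ratio was only 0.16, and 0.10 without the 16. Ly6a and Ly6c1, surface proteins of brain endothelium, led with 0.85 and 0.84 (adjusted p 0.128 and 0.206), and had 0.67 and 0.81 without the 16. Haemoglobin genes summed to 0 to 136612 CPM in 10-cell libraries and 0.66 to 28980 CPM in aliquots. Hba-a1 and Hba-a2, near-identical alpha-globin genes whose reads the counting may have split, had log2 SD ratios of 0.76 and 0.75 (adjusted p 0.429 and 0.422). Single libraries and sets moved these values. Hba-a1 had 1.24 without 1 aliquot of female 1 (adjusted p 0.242) and 0.42 without set male 2, and both genes were larger without set female 1, at 2.33 and 2.21 (adjusted p 0.0865 and 0.0813). With deviations taken from the mean both were called (limma adjusted p 0.0257 and 0.0332). Hba-a1 was at 0 in 9 of 14 10-cell libraries of female 1 and in 0, 0 and 3 of the other sets. No haemoglobin gene had a larger 10-cell SD in all 4 sets: the list median was -0.32 in female 1 and 0.84, 2.66 and 2.67 in female 2, male 1 and male 2. Over all sets it was 0.70, and 1.79 without female 1 and 0.36 without male 2. Genes of vessel and blood cells were thus present in most libraries of both kinds, and their part in the spread of other genes was not tested.

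**Figure D3:**
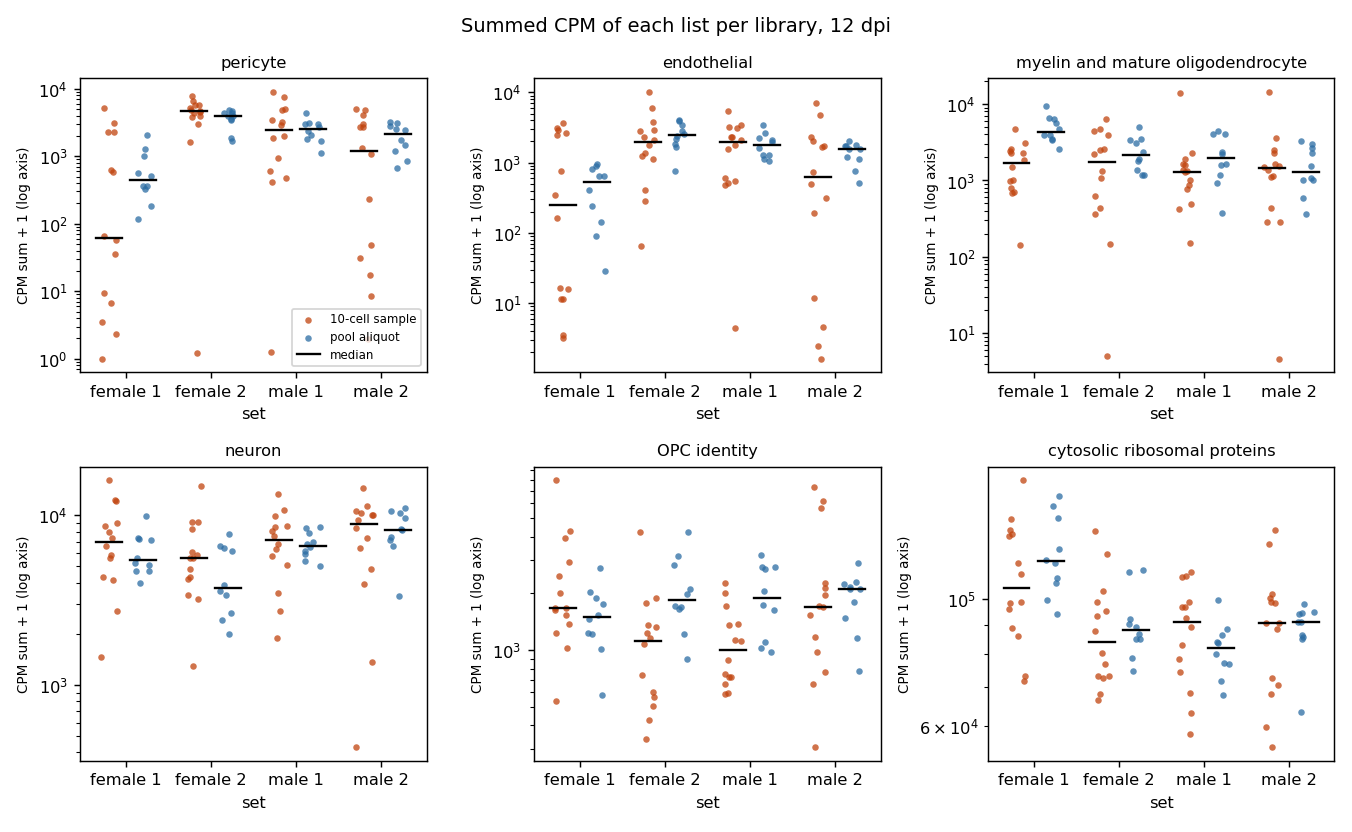
Summed CPM + 1 of 6 gene lists per library (log axes that differ between panels), by set, for 10-cell libraries (orange) and pool aliquots (blue), with medians as bars. Pericyte sums span 0 to 8991 CPM among 10-cell libraries and 117 to 4813 CPM among aliquots, and ribosomal protein sums span 54915 to 161712 and 63332 to 152162 CPM.

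Neuronal genes were wider at an unadjusted p under 0.05 in 9 of 15 tested (60%, beside 8.28% of all genes and 20.9% of the most abundant quintile, which held 11 of the 15), with a median log2 SD ratio of 0.54. Without the 16 libraries it was 2 of 15 (beside 4% of all genes) and 0.32. Snhg11, a long non-coding RNA of neurons, ran from 0.29 to 7532 CPM in 10-cell libraries and from 412 to 5327 CPM in aliquots (SD 2.27 against 0.84, log2 SD ratio 1.43, limma adjusted p 0.475, and 0.79 without the 16). Gad1, the GABA-synthesising enzyme of inhibitory neurons, had a ratio of 1.26 (adjusted p 0.511), and 0.84 without the 16. Astrocyte genes had 4 of 15 wider at an unadjusted p under 0.05 (26.7%, with 8 of the 15 in the most abundant quintile), a median of 0.30 with the 56 libraries and 0.19 with 0 of 16 wider without the 16. Beside 4% of all genes, that 0 of 16 cannot be read as a difference from other genes. Clu, the chaperone clusterin, changed sign with these libraries, from 0.73 to -0.01, while Apoe, the lipid carrier apolipoprotein E, stayed at 0.65 and 0.60. For microglia, the resident immune cells, the sum ran from 0 to 4116 CPM against 11.0 to 1673 CPM. Only 8 of 15 microglial genes were detected often enough to test, with a median of 0.07.

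Of 15 tested genes of OPC identity, 3 were wider (20%, near the 20.9% of the most abundant quintile, which held 7 of them) and 1 was narrower at an unadjusted p under 0.05. Their median log2 SD ratio was 0.24 (0.13 without the 16 libraries). Olig1, a transcription factor of the lineage, ran from 55.0 to 1871 CPM among 10-cell libraries of female 1 against 43.8 to 348 CPM among aliquots. In female 2 it ran from 0 to 444 against 22.5 to 2482 CPM, in male 1 from 6.46 to 838 against 15.6 to 693 CPM, and in male 2 from 3.51 to 1668 against 214 to 1012 CPM. In female 2 the highest value was thus an aliquot's. Its log2 SD ratio was 0.63 (limma adjusted p 0.390), with 0.55, 0.71, 0.08 and 1.70 in these sets in turn, and 0.43 without the 16. Bcan, which encodes the matrix proteoglycan brevican, had a ratio of 0.73 (adjusted p 0.485), and 0.26 without the 16. Vcan, the related versican, went the other way at -0.38 (adjusted p 0.390, and -0.26 without the 16), and it was at 0 in 34 of 56 10-cell libraries and 13 of 40 aliquots. The OPC sum ran from 305 to 7918 CPM in 10-cell libraries against 577 to 4210 CPM in aliquots, an SD of 1.00 against 0.62, or 0.87 without the 16. Committed precursor genes, on in cells leaving the OPC state, had 0 of 6 wider at an unadjusted p under 0.05 and a median of 0.04. The largest ratios among them were those of Sirt2, a deacetylase of the oligodendrocyte lineage, and Fyn, a kinase of early myelination (0.38 and 0.37, adjusted p 0.793 and 0.658, and 0.22 and 0.38 without the 16).

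Abundant housekeeping functions had medians above that of all genes, and these were smaller without the 16 high spike-in libraries. Cytosolic ribosomal protein genes had 11 of 82 wider at an unadjusted p under 0.05 (13.4%) and a median log2 SD ratio of 0.46, which was 0.17 with 1 of 82 wider without those libraries. Nuclear genes of oxidative phosphorylation, the respiratory chain, had 6 of 75 (8%) and 0.42, against 0 of 76 and -0.01. Glycolysis genes had 2 of 13 (15.4%) and 0.59, against 0 of 13 and 0.17. Nearly all of these genes lay in the most abundant quintile, whose median was 0.32 and of which 20.9% were wider: 79 of the 82 ribosomal, 72 of the 75 respiratory and 11 of the 13 glycolytic genes. Without the 16 libraries the most abundant quintile had a median of 0.09, and 3.74% of it was wider. Beside that share, 0 of 13 glycolysis genes cannot be read as a difference from other genes. For the 12 mitochondrially encoded genes the median was 0.43 with 5 wider (41.7%), and 0.28 with 2 wider without the 16.

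Single housekeeping genes show the size of these differences. Rpl13a, a protein of the large ribosomal subunit, ran from 110.5 to 7479 CPM among 10-cell libraries of female 2 and from 838 to 3529.8 CPM among its aliquots, and its SD over all sets was 1.12 against 0.44 (ratio 1.33, limma adjusted p 0.429, and 0.69 without the 16). Rpl11, another such protein, had a ratio of 1.20 (adjusted p 0.711), and 0.40 without the 16. The mitochondrial mt-Co1, a cytochrome c oxidase subunit, ran from 984 to 36498 CPM against 3467 to 13655 CPM (ratio 1.20, adjusted p 0.322), and mt-Atp6, an ATP synthase subunit, had 1.03 (adjusted p 0.276). They had 0.93 and 0.91 without the 16 libraries. Ribosomal protein and mitochondrial genes have near-identical copies elsewhere in the genome, so that their counts are uncertain. Tpi1, a glycolytic isomerase, and Uqcr11, a subunit of respiratory complex III, had ratios of 1.05 and 1.12 with all libraries and -0.18 and -0.34 without the 16. Ldhb, a lactate dehydrogenase chain, went from 0.99 to 0.17. Psmd8, a subunit of the proteasome lid, had 0.94 with all libraries (adjusted p 0.0786) and 0.81 without the 16, while the 44 proteasome genes had a median of 0.15.

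**Figure D4:**
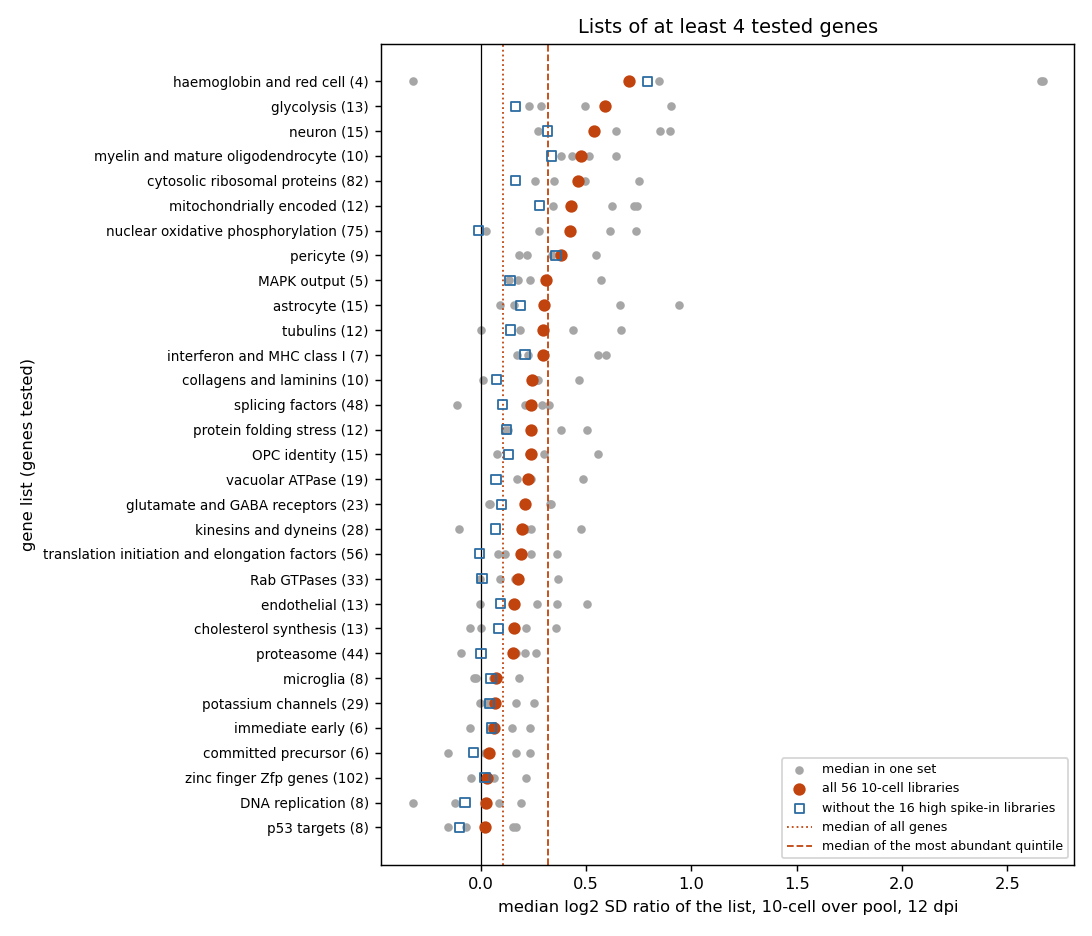
Median log2 SD ratio (x axis) of the 31 lists with at least 4 tested genes, with all 56 10-cell libraries (filled circles), without the 16 of high spike-in share (open squares) and in each set (grey dots); vertical lines are at 0, at the median of all genes (0.10) and at that of the most abundant quintile (0.32). Pericyte, myelin and haemoglobin medians are 0.36, 0.34 and 0.79 without the 16 libraries, and nuclear oxidative phosphorylation goes from 0.42 to -0.01.

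Other broad gene families had medians from 0.03 to 0.30, beside 0.10 for all genes. Zinc finger genes named Zfp had 3 of 102 wider at an unadjusted p under 0.05 (2.94%, beside 8.28% of all genes) and a median log2 SD ratio of 0.03, and only 5 of them were in the most abundant quintile. Zfp488, a zinc finger gene of the oligodendrocyte lineage, was an exception with an SD of 1.96 against 1.07 (ratio 0.88, larger in 4 of 4 sets, limma adjusted p 0.455, and 0.68 without the 16). Potassium channel genes had 3 of 29 wider (10.3%) and a median of 0.07. Glutamate and GABA receptor genes had 3 of 23 (13.0%) and 0.21, led by Gria2, an AMPA receptor subunit (0.89, adjusted p 0.372, and 0.64 without the 16). Kinesins and dyneins, the microtubule motors, had 4 of 28 (14.3%) and 0.20, and tubulins 4 of 12 (33.3%, with 8 of the 12 in the most abundant quintile) and 0.30. Among them Kif5b had 0.70 (adjusted p 0.372) and Tubb4b 0.97 (adjusted p 0.429), and 0.54 and 0.40 without the 16. Splicing factors had 4 of 48 (8.33%) and 0.24, and translation factors 6 of 56 (10.7%) and 0.19. Without the 16 libraries the medians of these 7 families lay between -0.01 and 0.14.

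For functions tied to the deleted genes few members were detected often enough to test, and beside 8.28% of all genes a count of 0 among so few cannot be read as a difference from other genes. For p53 targets, genes that Trp53 switches on, 0 of 8 tested were wider or narrower at an unadjusted p under 0.05, with a median log2 SD ratio of 0.02. Among them Cdkn1a, a cell cycle inhibitor, had 0.27 and Mdm2, the ubiquitin ligase of p53, 0.22 (limma adjusted p 0.860 and 0.590). For MAPK output, genes induced downstream of RAS, 0 of 5 were wider and the median was 0.31, or 0.14 without the 16 libraries. Its ETS factors Etv5 and Etv1 had 0.40 and 0.31 (adjusted p 0.549 and 0.565), and 0.04 and 0.19 without the 16. Immediate early genes had 0 of 6 wider and a median of 0.06, and Npas4, a factor induced by neuronal activity, had -0.45 (adjusted p 0.571). Interferon and MHC class I genes (0 of 7), protein folding genes (0 of 12) and cholesterol synthesis genes (0 of 13) had none wider either.

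Genes of cell division were mostly below the detection limit. Only 2 of 20 mitosis genes were detected in 48 or more libraries, and their median log2 SD ratio was -0.47. It was -0.24 without 1 aliquot of male 1, and -0.08 and -0.90 with pseudocounts of 0.1 and 5. Their sum ran from 0 to 1105 CPM in 10-cell libraries and from 0.94 to 536 CPM in aliquots, with an SD of 2.18 against 2.34, so that the SD of aliquots was not smaller than that of 10-cell samples. Cenpa, the centromeric histone, had a median of 0.90 CPM against 1.36 CPM and a ratio of -0.75 (limma adjusted p 0.743). That ratio rested on 1 aliquot of male 1 with 520 CPM, without which it was -0.27 (adjusted p 0.924). Of 8 tested DNA replication genes 1 was wider and 1 narrower at an unadjusted p under 0.05, with a median of 0.03. Rrm1, a ribonucleotide reductase subunit, had 0.48 (adjusted p 0.445) and Mcm6, part of the replicative helicase, -0.50 (adjusted p 0.566), and they had 0.47 and -0.70 without the 16.

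Whether differences in level passed the threshold depended on the tool. In edgeR on counts summed per set and kind, 0 of 14450 genes differed in level between 10-cell samples and aliquots (0%), with 659 (4.56%) at an unadjusted p under 0.05, while DESeq2 on the same sums called 227. The spread difference was called as unlike between female and male sets for 0 of 7874 genes (0%, limma), with 396 (5.03%) at an unadjusted p under 0.05.

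The same experiment at 90 dpi gave a different picture. Its 96 libraries had a median log2 SD ratio of -0.10 over all genes and of -0.28 in the most abundant quintile, with the median 10-cell SD below that of aliquots. The change of the spread difference between the times was called for 43 of 8840 genes (0.486%, limma interaction), 41 of them (0.464%) less wide at 90 dpi and 2 (0.0226%) wider. At an unadjusted p under 0.05 it was 1073 (12.1%) and 202 (2.29%). The interaction was not run without the 16 high spike-in libraries of 12 dpi. Without these, the 12 dpi median in the most abundant quintile was 0.09, against 0.32 with them. Spike-in shares at 90 dpi are not described here, so their part in the change between times was not tested. Csf1r, the growth factor receptor of microglia, went from 0.42 to -0.72 (adjusted p 0.00728), Psmd8 from 0.94 to -0.45 (0.0126) and Vtn from 1.94 to -0.34 (0.0282). P2ry12, a purine receptor of resting microglia, went from -0.63 to 0.72 (0.0380). Of the genes wider at each time, 24 of 9658 at 90 dpi (0.248%, beside 32 or 0.331% narrower) and 2 at 12 dpi, only Ptgds was shared, which is 50% of the shorter list and 4.17% of the longer, and its log2 SD ratio at 90 dpi was 1.62. Myelin, neuronal and haemoglobin lists had medians above 0 at both times (0.03, 0.05 and 0.34 at 90 dpi), as did collagens and laminins (0.10 at 90 dpi), immediate early genes (0.07), DNA replication (0.03), p53 targets (0.02) and potassium channels (0.02). Of 10 myelin genes 5 were less wide at 90 dpi at an unadjusted p under 0.05, beside 12.1% of all genes. Myelin was not alone in this, with 6 of 9 pericyte, 6 of 13 glycolytic, 36 of 82 ribosomal and 27 of 75 nuclear respiratory genes. Neuronal genes had 4 of 15 and p53 targets 0 of 8. The share in the most abundant quintile, which held 8 of the 10 myelin genes, is not given here. Ribosomal (-0.43), glycolytic (-0.44), nuclear respiratory (-0.41) and pericyte (-0.34) medians were below 0 at 90 dpi. With 4 sets per time, the number of calls ranged from 4 to 78 when single sets were left out.

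**Figure D5:**
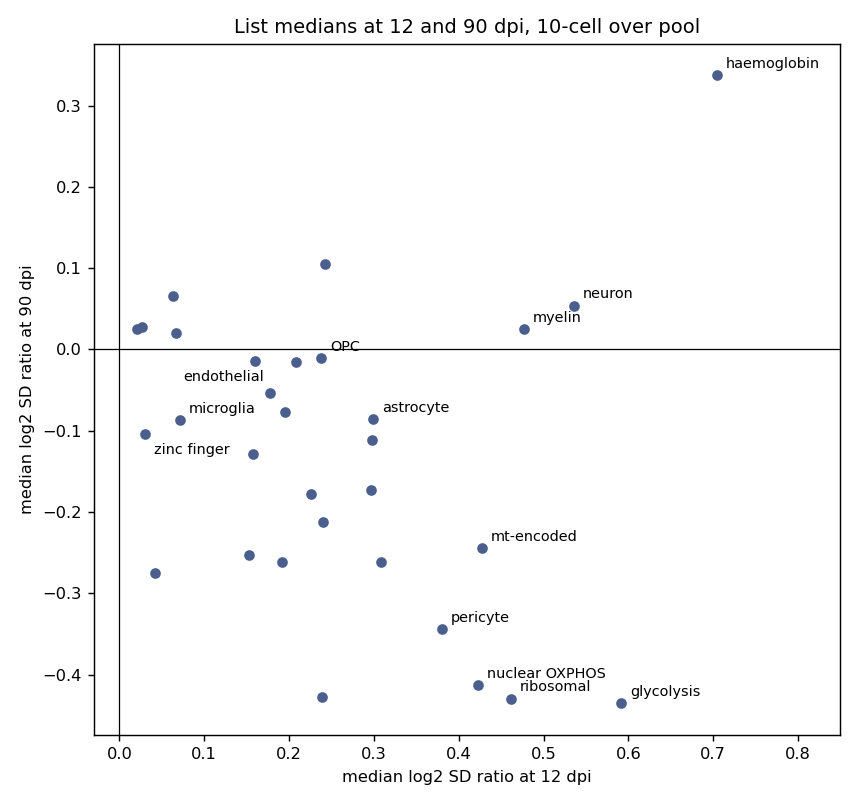
Median log2 SD ratio of each list with at least 4 tested genes at 12 dpi (x axis) against 90 dpi (y axis). Lists above 0 at both times include the myelin, neuronal and haemoglobin lists, while ribosomal (0.46 and -0.43), glycolytic (0.59 and -0.44) and nuclear oxidative phosphorylation (OXPHOS, 0.42 and -0.41) lists lie above 0 at 12 dpi and below 0 at 90 dpi.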

How the data were processed

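The 96 libraries were grouped by their labels, and sets by sex and closing number. The authors deposited expected counts for each gene and spike-in, with RSEM, Bowtie2 and GRCm38 named in the submitters' processing notes; versions are not given in the sources used here. The authors' table holds 34623 genes and 92 spike-ins, and 93.2% of the 34331 genes also in GENCODE M21 have the same coordinates there. Counts were rounded. CPM used each library's total gene count (for spike-ins its total spike-in count), and a pseudocount of 1 was added before log2. No 2 libraries held identical values.

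For each gene in at least 48 of 96 libraries, absolute deviations from the median of the set and kind, multiplied by sqrt(n/(n - 1)) for n libraries, entered limma 3.58.1 (10-cell against pool, trend, sex as covariate, two-sided, Benjamini-Hochberg, threshold 0.05), and interactions with sex and time likewise. Levels were tested with edgeR 4.0.16 (quasi-likelihood, TMM, minimum count 10) and DESeq2 1.42.0 in R 4.3.3. The test was also run on simulated counts drawn without differences between sets or in spike-in share, and no result here rests on that run.

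The members and the 33 lists were chosen with earlier results of these data known. Named genes are called genes, the 2 largest and the smallest ratio of each list, Nf1 and Trp53; from these the text takes a selection, 1 gene is not reported here, and others are said to be chosen later. No list was tested as a set. Alternatives were other pseudocounts, detection limits, scalings, thinning, deviations from the mean, a set block, no covariate, sets as units, and each set or library left out. Spread between libraries covers counting error and amplification, since PCR reads carry no molecular identifiers here.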

Additional observations from a re-analysis of the deposited data

Results flagged for a closer look

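The spread difference between 10-cell libraries and pool aliquots changed between the 2 times for 4 of the genes described, by an interaction of kind and time in limma on absolute deviations of log2(CPM + 1). The interaction, as 90 minus 12 dpi, was -2.48 for Csf1r (adjusted p 0.00728), -1.95 for Psmd8 (0.0126), -2.24 for Vtn (0.0282) and 1.90 for P2ry12 (0.0380). It was not run without the 12 dpi libraries of high spike-in share. P2ry12 had a mean of 4.65 CPM in 10-cell libraries against 26.7 CPM in aliquots at 12 dpi and was at 0 in 31 of 56 and 17 of 40. The other 3 had a larger 10-cell SD in 4 of 4 sets at 12 dpi. In 21 sets of 4 to 10 values (depth, spike-in share, genes detected, Ptgds and Vtn in the pool aliquots of each set, and the per-set ratios of Ptgds), no single highest or lowest value stood apart by Dixon's criterion. That criterion does not see 2 or 3 values that stand apart together. In male 2, 2 aliquots had 9270 and 10928 CPM of Ptgds and the other 8 had 156 to 634 CPM, and in male 1 the spike-in share was 0.379 to 0.510% in 3 aliquots and 5.77 to 8.38% in the other 7.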

How the results depend on the processing

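The number of genes wider in 10-cell libraries, 2 with the main settings, was 10 with a pseudocount of 0.1, 0 with a pseudocount of 5, 7 among genes detected in 0.9 of libraries, 4 with TMM scaling, 294 with deviations from the mean and 0 with the sets as the unit. Leave-one-out gave 0 to 3: 0 without female 2, 1 without male 2, and 2 or 3 without any single library. The number narrower, 0, was 1 with TMM scaling, 45 with deviations from the mean, and 0 to 1 under leave-one-out. With the set as a replicate block, 2 genes were wider, 0 narrower and 0 differed in level, and no call changed. The median log2 SD ratio was 0.31 among genes detected in 0.9 of libraries and 0.0374 without the 16 libraries of high spike-in share. Genes differing in level were 227 under DESeq2 and 37 with each library as a unit. The difference between sexes gave 0 to 2 genes with a set left out. The change between times, 43 genes, gave 121 with a pseudocount of 0.1, 24 with 5, 149 among genes detected in 0.9 of libraries, 24 with TMM scaling, and 4 to 78 with a set left out (4 without male 2 and 78 without female 1 at 12 dpi). Without the 16 libraries, Clu (-0.0121), Uqcr11 (-0.34) and Tpi1 (-0.18) reversed, and 342 genes were wider at an unadjusted p under 0.05, against 652. Without the 3 aliquots of low spike-in share, 555 were. Of 846 values of 46 single genes, 815 stayed on their side of the threshold in the same direction. Only Ptgds was called among these genes with the main settings, so the 815 are mostly values of genes uncalled both times. Ptgds lost its call in 5 settings, and 23 values of other genes gained one. Low counts limit the lowest quintile, where a gene was at 0 in a median of 24 of 56 10-cell libraries and 14 of 40 aliquots.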

Other observations

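Some genes outside the lists, chosen after their values were seen, stood apart. Pcp4, a calmodulin-binding peptide of neurons, had the largest log2 SD ratio of the 7874 genes (2.48, larger in 4 of 4 sets) without passing the limma test (adjusted p 0.281), and 13 of its 10-cell libraries lay below and 19 above every aliquot of their set. Plekhj1 was at low levels, with 21 of 56 10-cell libraries above and 0 below every aliquot of their set (log2 SD ratio 1.45, adjusted p 0.105). Without the 16 libraries of high spike-in share Plekhj1 passed the test (1.51, adjusted p 0.0279). Cpox, an enzyme of haem synthesis, was the gene nearest to being called narrower (log2 SD ratio -1.28, smaller in 4 of 4 sets, adjusted p 0.067), and its change between 12 and 90 dpi was called (adjusted p 0.0301).

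Pairs of 10-cell libraries of the same set had correlations of log2(CPM + 1) across genes from 0.37 to 0.85 (median 0.54, 364 pairs), and pairs of aliquots from 0.48 to 0.76 (median 0.61, 180 pairs). Genes are not independent replicates, and the pairs share libraries. All 4 pericyte markers were detected together in 33 of 56 10-cell libraries and in 26 of 40 aliquots. None of the 4 was detected in 4 10-cell libraries and in 0 aliquots. Red cell markers were all absent from 9 10-cell libraries, microglial from 6 and endothelial from 2, and each from 0 aliquots. For OPC, oligodendrocyte, astrocyte and neuron markers, 0 libraries of either kind lacked all.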
